A study of Mus musculus with 8 samples.

Results

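The sterol and fatty acid synthesis genes are 32 genes taken from a list of symbols: 16 enzymes that build cholesterol from acetyl units, 10 enzymes that supply, build, elongate or desaturate fatty acids, 5 genes of the sterol-sensing SREBP machinery, and Stard4, which encodes a cytosolic cholesterol carrier. They were found by matching RefSeq transcripts to symbols and summing each gene's transcripts, and all 32 were present among the 32903 genes with a matched transcript. All 32 also passed the filter of at least 1 TPM in at least 3 libraries, as did 15629 genes in all. TPM is an abundance corrected for transcript length and scaled to the library's total. The RNA came from mouse Kupffer cells, which are the macrophages that reside in liver sinusoids. The 5 naive libraries came from untreated mice, for which no corn oil injection is stated. For the 3 CCl4 libraries, mice received carbon tetrachloride, a toxin that injures hepatocytes and scars the liver, at 0.75 mL/kg in corn oil, 3 times a week for 8 weeks. All mice of both groups were wild type, and strain, age and sex were not given in the sources used here. The labels call the CCl4 libraries 1, 2-4 and 3 without saying whether 2-4 is a pool, and no label ties a library to a mouse of its own. The p-values below therefore measure the spread between libraries, which may be technical. The comparison addressed which steps of lipid synthesis differed in abundance between macrophage preparations of fibrotic and untreated livers.

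Cholesterol synthesis joins acetyl-CoA units into mevalonate and isoprenoids, condenses these into squalene, closes squalene into lanosterol and trims lanosterol to cholesterol. When sterols run low in the endoplasmic reticulum, the escort protein SCAP carries SREBP precursors to the Golgi for cleavage, and the freed fragment enters the nucleus and binds sterol regulatory elements, usually beside sites for NF-Y and Sp1. When sterols are plentiful, INSIG proteins hold SCAP back. SREBP2, from Srebf2, acts mainly on cholesterol genes, while SREBP1c, from Srebf1, acts mainly on fatty acid genes and is itself under LXR, a nuclear receptor for oxysterols. Macrophages take up cholesterol with the cells and debris they engulf, and their desaturases and elongases provide unsaturated fatty acids for membranes and lipid mediators.

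RefSeq promoter windows of 300 bases (250 before and 50 after a start site, GRCm38.p6) were matched to 25 of the 32 genes, in 34 windows. Fads1, Scd1, Fdps, Fdft1, Sqle, Stard4 and Scd2 had none. Each window was searched on both strands for 4 motifs: a sterol regulatory element core (TCACNCCAC), the CCAAT box bound by NF-Y, an E-box (CACGTG) and the GC box bound by Sp1 (GGGCGG). No pair of different motifs shared bases in any of the 34 windows. The sterol element core was in 1 of the 34 windows, that of Hmgcs1, and in 1.24% of all 32851 windows. CCAAT was in 21 of 34 (61.8%), against 37.4% of all windows, and the GC box in 24 of 34 (70.6%), against 35.7%. The E-box was in 7 of 34 (20.6%), against 7.15%. These 7 windows belonged to 6 genes, because the windows of Scap overlap and share the same E-box and a GC box. By role, CCAAT was in a window of 12 of the 13 sterol enzymes searched, all but Acat2, of 4 of 5 regulators and of 4 of 7 fatty acid enzymes. A match of letters is a description of the sequence and not a bound site. The sterol element was searched in this form only, so a window without a match may still hold a variant of it. The 250 bases before the start site are shown for Hmgcs1, the only gene with the sterol element core (chr13:119690101-119690350, + strand), for 4 genes that were higher in CCl4, Cyp51 (chr5:4104698-4104947, - strand), Mvd (chr8:122443423-122443672, - strand), Pmvk (chr3:89454291-89454540, + strand, the first of its 2 windows) and Srebf2 (chr15:82147019-82147268, + strand), and for Fads2, which was lower (chr19:10101504-10101753, - strand). They are written 5′ to 3′ on the gene's strand, with every motif match in capitals, where ATTGG and CCGCCC are CCAAT and the GC box on the other strand.
Hmgcs1: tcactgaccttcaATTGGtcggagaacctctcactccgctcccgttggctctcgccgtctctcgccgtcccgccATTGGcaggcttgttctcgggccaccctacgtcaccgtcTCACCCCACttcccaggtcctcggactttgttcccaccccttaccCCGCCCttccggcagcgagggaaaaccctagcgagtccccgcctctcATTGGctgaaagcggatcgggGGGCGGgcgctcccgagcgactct
Cyp51: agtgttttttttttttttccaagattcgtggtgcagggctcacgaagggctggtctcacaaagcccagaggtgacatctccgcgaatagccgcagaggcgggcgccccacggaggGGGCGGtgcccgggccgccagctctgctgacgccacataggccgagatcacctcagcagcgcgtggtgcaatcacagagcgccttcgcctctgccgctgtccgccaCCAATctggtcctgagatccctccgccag
Mvd: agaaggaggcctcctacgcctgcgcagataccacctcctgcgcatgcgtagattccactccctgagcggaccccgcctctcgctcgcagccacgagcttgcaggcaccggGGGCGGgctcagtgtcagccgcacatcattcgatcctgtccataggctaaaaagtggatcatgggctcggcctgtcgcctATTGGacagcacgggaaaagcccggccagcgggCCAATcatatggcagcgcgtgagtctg
Pmvk: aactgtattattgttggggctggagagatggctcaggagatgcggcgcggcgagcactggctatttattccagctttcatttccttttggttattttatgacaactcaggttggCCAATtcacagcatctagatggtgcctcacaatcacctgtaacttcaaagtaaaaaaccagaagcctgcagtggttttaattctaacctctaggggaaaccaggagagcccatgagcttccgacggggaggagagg
Srebf2: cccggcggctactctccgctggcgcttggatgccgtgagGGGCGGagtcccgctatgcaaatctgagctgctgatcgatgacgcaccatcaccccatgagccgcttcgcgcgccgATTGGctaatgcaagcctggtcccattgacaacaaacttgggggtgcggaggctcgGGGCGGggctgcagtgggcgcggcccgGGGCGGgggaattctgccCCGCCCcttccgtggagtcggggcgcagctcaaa
Fads2: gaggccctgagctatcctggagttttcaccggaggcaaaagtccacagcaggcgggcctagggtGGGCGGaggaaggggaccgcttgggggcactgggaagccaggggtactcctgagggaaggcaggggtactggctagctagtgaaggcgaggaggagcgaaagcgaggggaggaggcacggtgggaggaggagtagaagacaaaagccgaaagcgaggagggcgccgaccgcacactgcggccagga
The Hmgcs1 stretch held the sterol element core with 3 CCAAT boxes and 2 GC boxes. Cyp51 and Mvd each held a GC box, with 1 CCAAT box in Cyp51 and 2 in Mvd. Srebf2 held 4 GC boxes and 1 CCAAT box, Pmvk 1 CCAAT box and no GC box, and Fads2 1 GC box and no CCAAT box. A gene was counted if any of its windows held the motif. The second Pmvk window held none of the 4 motifs, and Insig2 and Me1 also had windows without CCAAT. Counted so, the CCAAT box was present in all 4 of the genes called higher that had a window. Of the 4 genes called lower that had one, 3 held it, Insig2, Acly and Me1. The box was also present in 13 of the 17 genes with a window that were not called.

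In the CCl4 libraries some enzymes of sterol synthesis and the regulator Srebf2 were higher. The desaturases Scd1, Fads1 and Fads2, but not Scd2, were lower, as were Me1, Acly, Insig2 and Stard4. By limma on log2(TPM + 1), 5 of the 32 genes rose (Pmvk, Mvd, Sqle, Cyp51 and Srebf2), 7 fell (Insig2, Stard4, Acly, Me1, Scd1, Fads1 and Fads2) and 20 were not called at an adjusted p under 0.05. Among all genes tested, 15.3% were called higher and 22.5% lower, so the members' shares of 15.6% and 21.9% were close to the background. The groups did not overlap for 6 genes above (16.3% of all genes) and 7 below (20.6%). The median log2 fold change was 0.02 over the members and -0.06 over all genes. All 4 rises among enzymes were in sterol synthesis, where 4 of 16 rose and 0 fell (median 0.07). All 5 falls among enzymes were in the fatty acid group, where 0 of 10 rose and 5 fell (median -0.27). Scaling moved the first number: the split was 8 higher and 7 lower after median-of-ratios rescaling, 11 and 7 after quantile normalization, which moved the median of all genes to 0.11, and 3 and 7 after rescaling to protein-coding genes.

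**Figure D1:**
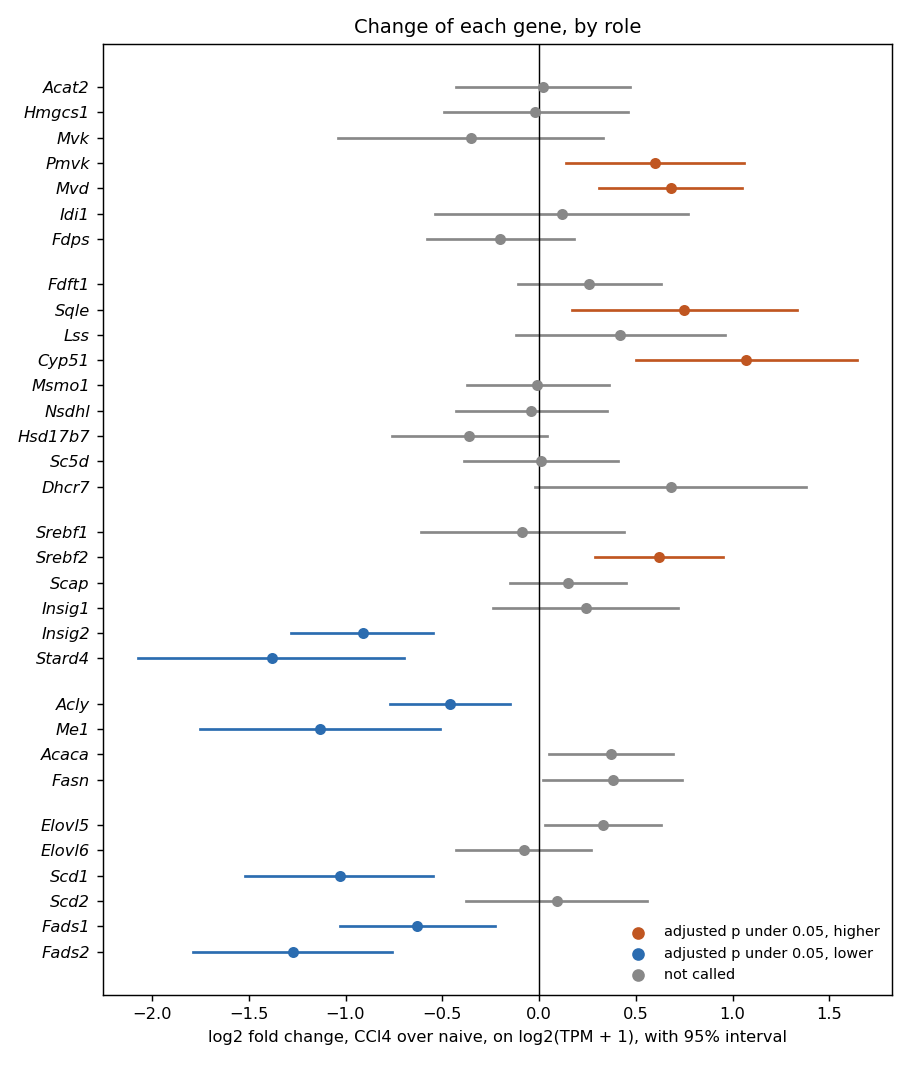
Log2 fold change of each of the 32 genes, CCl4 over naive on log2(TPM + 1), with its 95% interval, ordered by role from mevalonate steps (top) to desaturases (bottom). Cyp51 lies farthest to the right at 1.07, and Stard4 (-1.38) and Fads2 (-1.27) lie farthest to the left.

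Among the 7 genes from acetyl units to farnesyl diphosphate, the precursor of squalene, Pmvk and Mvd rose and 5 were not called. Mvd (chr8:122433596-122443422), the decarboxylase that makes isopentenyl diphosphate, was at 7.04, 8.95, 9.53, 7.53 and 9.28 TPM in naive replicates 1 to 5 and at 11.7, 16.5 and 14.3 TPM in CCl4 replicates 1, 2-4 and 3, the order used throughout. Every CCl4 library lay above every naive one. The means were 8.47 ± 1.11 (SD, n = 5) without and 14.2 ± 2.39 TPM (SD, n = 3) with CCl4, a ratio of 1.68 (log2 fold change 0.68, SE 0.166, adjusted p = 0.00817). A transcript annotated as noncoding ran the other way: the coding Mvd transcript alone was at 5.21, 7.82, 8.56, 5.51 and 5.66 TPM against 11.5, 16.2 and 14.3 TPM. Pmvk (chr3:89454541-89469014), the phosphomevalonate kinase just before it, was at 12.7, 13.6, 21.2, 15.3 and 15.7 TPM in naive and 18.9, 32.6 and 22.2 TPM in CCl4 libraries. Naive 3 overlapped the CCl4 values, and the library 2-4 was far above the other two. The Pmvk means were 15.7 ± 3.3 (SD, n = 5) without and 24.6 ± 7.13 TPM (SD, n = 3) with CCl4 (log2 fold change 0.60, SE 0.208, adjusted p = 0.0428). The Pmvk call was lost in 10 of 21 alternatives, including leaving out CCl4 2-4 (log2 fold change 0.39, adjusted p = 0.183), naive 1 (0.53, adjusted p = 0.0915), naive 2 (0.56, adjusted p = 0.0859), naive 4 (0.60, adjusted p = 0.0773) or CCl4 3 (0.65, adjusted p = 0.0801).

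Hmgcs1, the synthase that makes HMG-CoA, was at 23.8, 28, 30.3, 25.3 and 22.4 TPM in naive and 22.1, 39.1 and 19.1 TPM in CCl4 libraries. The groups overlapped, with CCl4 2-4 the highest of all 8 libraries and CCl4 3 the lowest. Its log2 fold change was -0.02 (95% interval -0.49 to 0.46, adjusted p = 0.963). Fdps, which makes farnesyl diphosphate, had a log2 fold change of -0.20 (95% interval -0.58 to 0.18, adjusted p = 0.388), and Mvk, the mevalonate kinase, of -0.35 (95% interval -1.04 to 0.33, adjusted p = 0.403). Mvk was at 3.1 TPM in naive 5 and at 7.48 to 9.28 TPM in the other naive libraries, and without naive 5 it was called lower at -0.60 (adjusted p = 0.0312). Idi1, the isomerase of isopentenyl diphosphate, ranged from 2.03 to 6.22 TPM in naive and from 3.11 to 6.68 TPM in CCl4 libraries. Acat2, which condenses acetyl-CoA units, ranged from 5.82 to 8.34 and from 5.57 to 10.2 TPM. Its paralog Acat3, from which the read assignment could take or give reads, was at 12.6, 15.2, 18.7, 12.8 and 4.35 TPM in naive and at 3.95, 5.29 and 3.04 TPM in CCl4 libraries. Acat3 was called lower (log2 fold change -1.33, SE 0.366, adjusted p = 0.0148), with naive 5 inside the CCl4 range.

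Between squalene and cholesterol, Sqle and Cyp51 rose and 7 of 9 genes were not called. Cyp51 (chr5:4080674-4104697), the lanosterol demethylase, was at 4.78, 4.83, 5.67, 5.08 and 7.82 TPM in naive and 10, 21.2 and 9.66 TPM in CCl4 libraries. Every CCl4 library was above every naive one, and CCl4 2-4 was well above the other 2 CCl4 libraries. The means were 5.64 ± 1.27 (SD, n = 5) without and 13.6 ± 6.58 TPM (SD, n = 3) with CCl4, a ratio of 2.42 (log2 fold change 1.07, SE 0.258, adjusted p = 0.00754). Without CCl4 2-4 its log2 fold change was 0.73 (adjusted p = 0.023), and the call held in all 21 alternatives, with values from 0.73 to 1.28. Sqle (chr15:59315092-59331193), the squalene epoxidase and a rate-limiting step after mevalonate, was at 2.68, 3.74, 3.56, 3.72 and 5.01 TPM in naive and 5.5, 11.8 and 4.89 TPM in CCl4 libraries. Naive 5 overlapped CCl4 3, and CCl4 2-4 stood highest. The Sqle means were 3.74 ± 0.833 (SD, n = 5) without and 7.39 ± 3.81 TPM (SD, n = 3) with CCl4 (log2 fold change 0.75, SE 0.264, adjusted p = 0.0453). Its call was lost in 10 of 21 alternatives: without CCl4 2-4 the log2 fold change was 0.40 (adjusted p = 0.184), and without naive 1, 2, 3 or 4 the adjusted p was 0.095, 0.0765, 0.0769 and 0.078.

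The other genes of this stretch spanned both signs. Dhcr7, which reduces the last double bond in one branch of the pathway, was at 3.2, 5.13, 1.52, 6.4 and 5.34 TPM in naive and 7.42, 6.1 and 7.51 TPM in CCl4 libraries. Naive 4 lay above CCl4 2-4, so the groups overlapped, and naive 3 was the lowest. Its log2 fold change of 0.68 (95% interval -0.02 to 1.38, adjusted p = 0.117) was as large as that of Mvd with a wider interval. Lss, the cyclase that forms lanosterol, was at 4.32, 2.99, 3.77, 3.28 and 4.48 TPM in naive and 4.01, 8.9 and 4.1 TPM in CCl4 libraries. CCl4 1 and 3 lay inside the naive range and CCl4 2-4 above it (log2 fold change 0.42 (95% interval -0.12 to 0.96, adjusted p = 0.207)). Fdft1, the squalene synthase, had a log2 fold change of 0.26 (95% interval -0.11 to 0.63, adjusted p = 0.25). Hsd17b7, a keto-reductase of sterol demethylation, was at 2.53, 2.49, 2.66, 2.3 and 3.05 TPM in naive and 1.56, 2.53 and 1.44 TPM in CCl4 libraries. CCl4 2-4 alone lay within the naive range, and without it Hsd17b7 was called lower at -0.52 (adjusted p = 0.0496). Over all alternatives the log2 fold change of Hsd17b7 ran from -0.52 to 0.23, with a change of sign in 1. Msmo1 (log2 fold change -0.01), Nsdhl (-0.04) and Sc5d (0.01), enzymes of demethylation and of late desaturation of the sterol ring, had differences near 0.

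**Figure D2:**
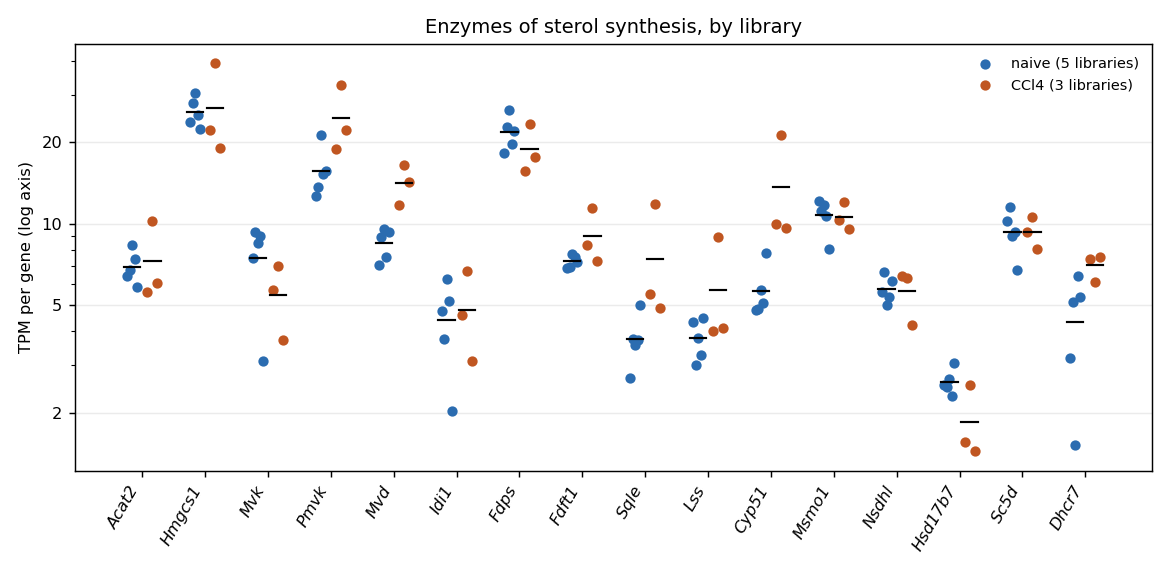
TPM of the 16 sterol synthesis enzymes in each library (points, log axis) with group means (bars), in pathway order from left to right. In Mvd and Cyp51 the 3 CCl4 libraries lie above all 5 naive libraries, and in Cyp51, Sqle and Lss the highest point is the CCl4 library 2-4.

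The regulators moved apart: Srebf2 rose, Insig2 fell, and Srebf1, Scap and Insig1 were not called. Srebf2 (chr15:82147269-82205379) was at 34.2, 37, 39.7, 36.2 and 43.1 TPM in naive and 50.3, 72.8 and 55.3 TPM in CCl4 libraries. Each CCl4 value exceeded each naive value. The means were 38 ± 3.43 (SD, n = 5) without and 59.5 ± 11.8 TPM (SD, n = 3) with CCl4, a ratio of 1.56 (log2 fold change 0.62, SE 0.149, adjusted p = 0.00763). Its curated coding transcript alone was at 25.1, 26.1, 28.3, 26.2 and 27.4 TPM in naive and at 38.7, 53.1 and 40.2 TPM in CCl4 libraries, again without overlap. Insig2 (chr1:121304353-121332662), one of the proteins that retain SCAP, was at 15.2, 16.6, 17.6, 11.8 and 14.4 TPM in naive and 8.7, 7.22 and 6.7 TPM in CCl4 libraries. All CCl4 values lay under the lowest naive value of 11.8. The Insig2 means were 15.1 ± 2.22 (SD, n = 5) without and 7.54 ± 1.04 TPM (SD, n = 3) with CCl4, a ratio of 0.499 (log2 fold change -0.91, SE 0.165, adjusted p = 0.00137). Only the gene's sum is compared, since a predicted Insig2 transcript took from 2.4% to 92% of it in different libraries. The other retention gene, Insig1, whose transcription SREBPs themselves raise, was at 38.9, 45.1, 42.3, 29.3 and 34.2 TPM in naive and 35.4, 65.3 and 37.9 TPM in CCl4 libraries. CCl4 1 and 3 lay within the naive range and CCl4 2-4 above it (log2 fold change 0.24 (95% interval -0.24 to 0.72, adjusted p = 0.42)). Insig1 made up 71.9, 73.1, 70.7, 71.3 and 70.3% of the summed TPM of both genes in naive libraries and 80.3, 90.0 and 85.0% in CCl4 libraries. The naive shares lay close together, and all CCl4 shares were higher, with means of 71.4% ± 1.1 (SD, n = 5) and 85.1% ± 4.88 (SD, n = 3).

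Srebf1 was at 12.3, 9.23, 13.8, 14.4 and 22.3 TPM in naive and 11.2, 15.1 and 13 TPM in CCl4 libraries. The CCl4 values lay within the naive range, in which naive 5 was the highest (log2 fold change -0.09 (95% interval -0.61 to 0.44, adjusted p = 0.803)). Its share of the summed Srebf1 and Srebf2 TPM was 26.4, 20.0, 25.9, 28.5 and 34.1% in naive and 18.1, 17.2 and 19.0% in CCl4 libraries. All CCl4 shares were under the lowest naive share, by a small margin against naive 2. Scap was at 17 to 22.1 TPM in naive and 19.4 to 22 TPM in CCl4 libraries (log2 fold change 0.15 (95% interval -0.15 to 0.45, adjusted p = 0.43)). Gene sums do not separate the Srebf1 protein isoforms, and how the sum divided over RefSeq transcripts varied widely between libraries: 1 curated transcript took from 21.1% to 100% of it. Stard4 (chr18:33199138-33213862), an SREBP2 target that carries cholesterol between membranes, was at 11.2, 11.6, 13.3, 9.83 and 4.08 TPM in naive and 3.02, 3.67 and 2.36 TPM in CCl4 libraries. All CCl4 values were lower, but naive 5 lay near them and far from naive 1 to 4. The Stard4 means were 10 ± 3.54 (SD, n = 5) without and 3.02 ± 0.656 TPM (SD, n = 3) with CCl4, a ratio of 0.302 (log2 fold change -1.38, SE 0.309, adjusted p = 0.00491). Without naive 5 its log2 fold change was -1.64.

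**Figure D3:**
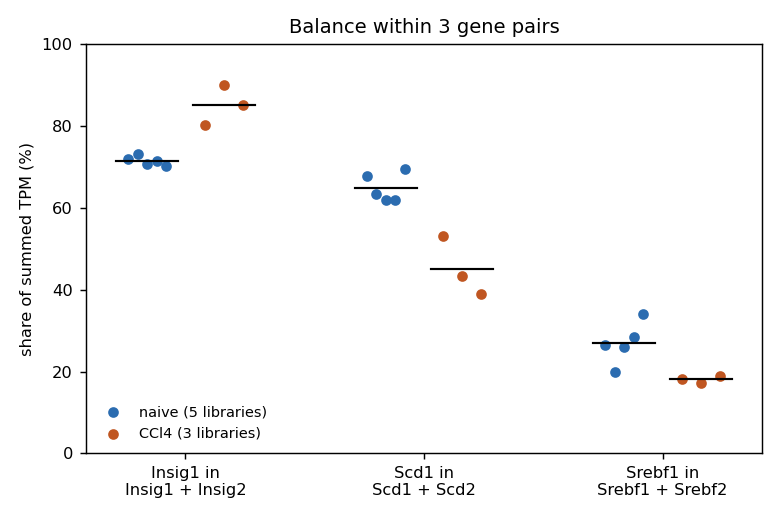
Share of the first gene in the summed TPM of 3 pairs of related genes (percent), by library, with group means as bars. The Insig1 share is higher in all 3 CCl4 libraries, and the Scd1 and Srebf1 shares are lower in all 3 CCl4 libraries than in the 5 naive libraries.

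In the fatty acid group the enzymes that feed synthesis fell, while the synthesis enzymes themselves were not called and had values above naive. Acly (chr11:100476352-100528000), which cleaves citrate to give cytosolic acetyl-CoA, was at 86.4, 95, 87.2, 76.3 and 75.4 TPM in naive and 64.9, 66.7 and 51.2 TPM in CCl4 libraries. Every CCl4 value lay below every naive value, and CCl4 3 was the lowest. The means were 84.1 ± 8.21 (SD, n = 5) without and 60.9 ± 8.45 TPM (SD, n = 3) with CCl4, a ratio of 0.725 (log2 fold change -0.46, SE 0.140, adjusted p = 0.0235). The Acly call was lost without naive 1 (-0.45, adjusted p = 0.0528) and without CCl4 3 (-0.34, adjusted p = 0.11). Me1 (chr9:86581363-86695914), the malic enzyme that supplies NADPH, was at 2.97, 3.37, 3.22, 2.57 and 0.849 TPM in naive and 0.784, 0.451 and 0.5 TPM in CCl4 libraries. The groups did not overlap, but naive 5 was just above CCl4 1. The Me1 means were 2.6 ± 1.02 (SD, n = 5) without and 0.578 ± 0.18 TPM (SD, n = 3) with CCl4, a ratio of 0.223 (log2 fold change -1.13, SE 0.280, adjusted p = 0.00865), and the fold change on log2(TPM + 1) understates the change of so low a gene. Me1 was under 1 TPM in naive 5 and in all 3 CCl4 libraries, so it passed the filter only through naive 1 to 4. Without naive 5 its log2 fold change was -1.36.

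Acaca, the acetyl-CoA carboxylase of the committed step, was at 8.82, 10.7, 10.2, 8.9 and 9.84 TPM in naive and 12.7, 14.6 and 11.3 TPM in CCl4 libraries. Fasn, the fatty acid synthase, was at 13.8, 13.5, 16.9, 11.9 and 16.6 TPM in naive and 17.3, 22.4 and 17.9 TPM in CCl4 libraries. For both genes all CCl4 libraries were above all naive ones, by small margins. The Acaca sum lay almost wholly in predicted transcripts, since its curated transcript held at most 1.22% of it in any library. The log2 fold change was 0.37 (95% interval 0.05 to 0.69, adjusted p = 0.0704) for Acaca and 0.38 (95% interval 0.02 to 0.74, adjusted p = 0.0894) for Fasn, neither called. Both were called higher after median-of-ratios rescaling and after quantile normalization, and Fasn also with library weights (0.43, adjusted p = 0.0496).

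Of the 6 genes of elongation and desaturation, the 3 desaturases Scd1, Fads1 and Fads2 fell and Scd2, Elovl5 and Elovl6 were not called. Fads2 (chr19:10062765-10101503), the front-end desaturase that starts the conversion of linoleic and linolenic acid, was at 14.1, 17.1, 12.9, 12.3 and 7.62 TPM in naive and 5.41, 4.72 and 3.67 TPM in CCl4 libraries. All CCl4 values lay below all naive values, with naive 5 the nearest. The means were 12.8 ± 3.44 (SD, n = 5) without and 4.6 ± 0.877 TPM (SD, n = 3) with CCl4, a ratio of 0.359 (log2 fold change -1.27, SE 0.232, adjusted p = 0.00144). Fads1 (chr19:10182877-10196874), which lies beside Fads2 on chromosome 19 and acts later in the route to arachidonic acid, was at 43.4, 51, 46.6, 36.7 and 29.7 TPM in naive and 28.6, 26.7 and 22.8 TPM in CCl4 libraries. The groups did not overlap, but naive 5 was close to CCl4 1. The Fads1 means were 41.5 ± 8.37 (SD, n = 5) without and 26 ± 3 TPM (SD, n = 3) with CCl4, a ratio of 0.628 (log2 fold change -0.63, SE 0.182, adjusted p = 0.0184), and the call was lost without CCl4 3 (-0.54, adjusted p = 0.0831). Scd1 (chr19:44394450-44407709), the stearoyl-CoA desaturase that makes oleic acid, was at 46.6, 46, 35.2, 36 and 29.2 TPM in naive and 23.5, 20 and 12.5 TPM in CCl4 libraries. All CCl4 values were lower, and CCl4 3 was the lowest. The Scd1 means were 38.6 ± 7.52 (SD, n = 5) without and 18.7 ± 5.62 TPM (SD, n = 3) with CCl4, a ratio of 0.483 (log2 fold change -1.03, SE 0.220, adjusted p = 0.0037).

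Scd2, another stearoyl-CoA desaturase gene, was at 22.2, 26.6, 21.8, 22.2 and 12.9 TPM in naive and 20.7, 26 and 19.6 TPM in CCl4 libraries. The CCl4 values lay inside the naive range, whose lowest was naive 5 (log2 fold change 0.09 (95% interval -0.38 to 0.56, adjusted p = 0.779)). Scd1 therefore made up 67.7, 63.3, 61.8, 61.9 and 69.4% of the summed Scd1 and Scd2 TPM in naive and 53.1, 43.4 and 38.9% in CCl4 libraries. Every CCl4 share was lower, with means of 64.8% ± 3.5 (SD, n = 5) and 45.1% ± 7.27 (SD, n = 3). Elovl5, the elongase of polyunsaturated chains, was at 34.2, 43.3, 42.2, 37.5 and 32.2 TPM in naive and 47.5, 47.9 and 47.1 TPM in CCl4 libraries. Its CCl4 values lay close together and above all naive values, yet it was not called (log2 fold change 0.33 (95% interval 0.03 to 0.63, adjusted p = 0.082)). Elovl5 was called higher after median-of-ratios rescaling and after quantile normalization. Elovl6, which extends palmitate, was at 1.51 to 2.01 TPM in naive and 1.53 to 1.83 TPM in CCl4 libraries.

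**Figure D4:**
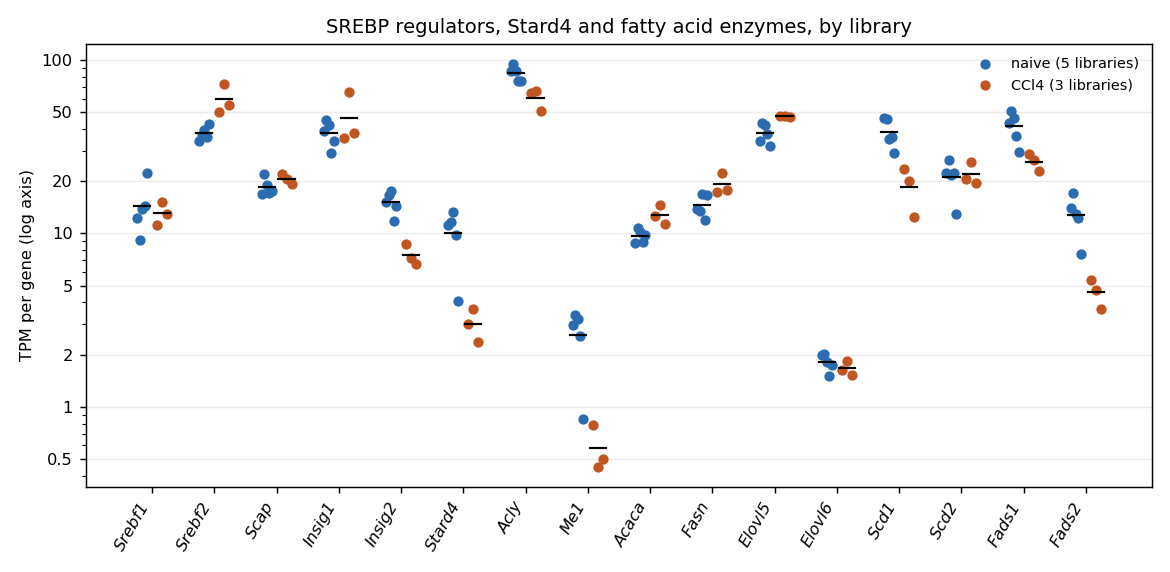
TPM of the regulators, Stard4 and the fatty acid enzymes in each library (points, log axis) with group means (bars). The CCl4 points lie below all naive points in Insig2, Stard4, Acly, Me1, Scd1, Fads1 and Fads2, and above them in Srebf2, Acaca, Fasn and Elovl5.

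How often a library was the highest or lowest of its group differed by role. Among the CCl4 libraries, 2-4 was the highest for 14 of the 16 sterol enzymes and 24 of the 32 genes, against 47.2% of all tested genes. The summed TPM of the 16 sterol enzymes was 132.7, 148.3, 160.7, 143.2 and 134.1 in naive and 147.2, 226.2 and 143.0 in CCl4 libraries. CCl4 1 and 3 lay inside the naive range and CCl4 2-4 above it. Among the naive libraries, naive 5 was the lowest for 7 of 10 fatty acid enzymes, against 44.3% of all tested genes, and naive 2 was the highest for 8 of 10, against 36.9%. Over all 32 genes these shares were 43.8% and 40.6%, close to those of all tested genes. For the 16 sterol enzymes they were 37.5% and 18.8%. The summed TPM of the 10 fatty acid enzymes was 274.5, 308.5, 278.0, 245.8 and 216.0 in naive and 223.1, 231.4 and 188.1 in CCl4 libraries. Naive 5 lay inside the CCl4 range. With naive 5 and CCl4 2-4 both left out, 3 genes rose (Cyp51, Mvd and Srebf2) and 9 fell, the 7 above with Mvk and Hsd17b7. That alternative was chosen after seeing the data.

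Markers of several cell types, Kupffer cells among them, also differed between naive and CCl4 libraries. The summed TPM of 7 Kupffer cell markers, Clec4f and Cd5l among them, ranged from 2288 to 4891 in naive and from 248.9 to 330.5 in CCl4 libraries, with 7 of 7 called lower. Of 8 markers of monocytes and recruited macrophages, 6 were higher, from 136.2 to 280.0 summed TPM in naive, naive 5 the highest, and from 945.0 to 1703 in CCl4 libraries. All 10 markers of sinusoidal endothelium were lower, from 5562 to 10465 in naive, naive 5 the lowest, and from 224.0 to 593.2 in CCl4 libraries, and none of them was at 0. In naive libraries the sum of the 10 endothelial markers exceeded that of the 7 Kupffer cell markers in each library, so the labelled cell type was present but not alone. Erythroid markers summed to 2910 to 5403 in naive 1 to 4, to 183.1 in naive 5 and to 40.9 to 84.9 in CCl4 libraries, with 4 of 4 tested called lower. T and NK cell markers, of which 2 of 5 were called lower, were highest in CCl4 2-4 at 192.2, against 59.4 and 42.3 in the other CCl4 libraries and 134.8 to 179.2 in naive. B cell markers, with 0 of 5 called, were at 62.1, 141.1 and 56.5 in CCl4 libraries and 76.8 to 136.2 in naive. The part of these cells in the values of the 32 genes was not tested, and in bulk RNA fewer cells of a type and less RNA per cell cannot be told apart.

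Hepatocyte markers, of which 7 of 10 were called lower and none was at 0, were at 1041, 1377, 1030, 815.8 and 671.2 summed TPM in naive and 880.1, 319.0 and 209.8 in CCl4 libraries. Alb made up 536.9 TPM of the sum in CCl4 1 and lay inside the naive range, as did Apoa1, Apoa2, Ttr, Serpina1a and Cps1. Cyp2e1 (5.97 TPM), Tat (8.81 TPM) and Fgb (46.7 TPM) were there below every naive library, Fgb by a small margin. Cyp3a11, at 27.7 TPM in CCl4 1, was above every naive library. The part of hepatocyte RNA in the values of the 32 genes was not tested. Proliferation genes were called higher for 4 of 6, from 29 to 56.9 summed TPM in naive and from 78.3 to 130.4 in CCl4 libraries. Collagen-producing stellate cells and fibroblasts, with 2 markers higher and 1 lower of 8, summed to 33.2 to 101.3 in naive and 125.7 to 146.5 in CCl4 libraries. Cholangiocyte markers had 1 higher of 5. Of neutrophil markers 2 of 5 were tested, with 1 lower and Ly6g at 0 in all 8 libraries.

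**Figure D5:**
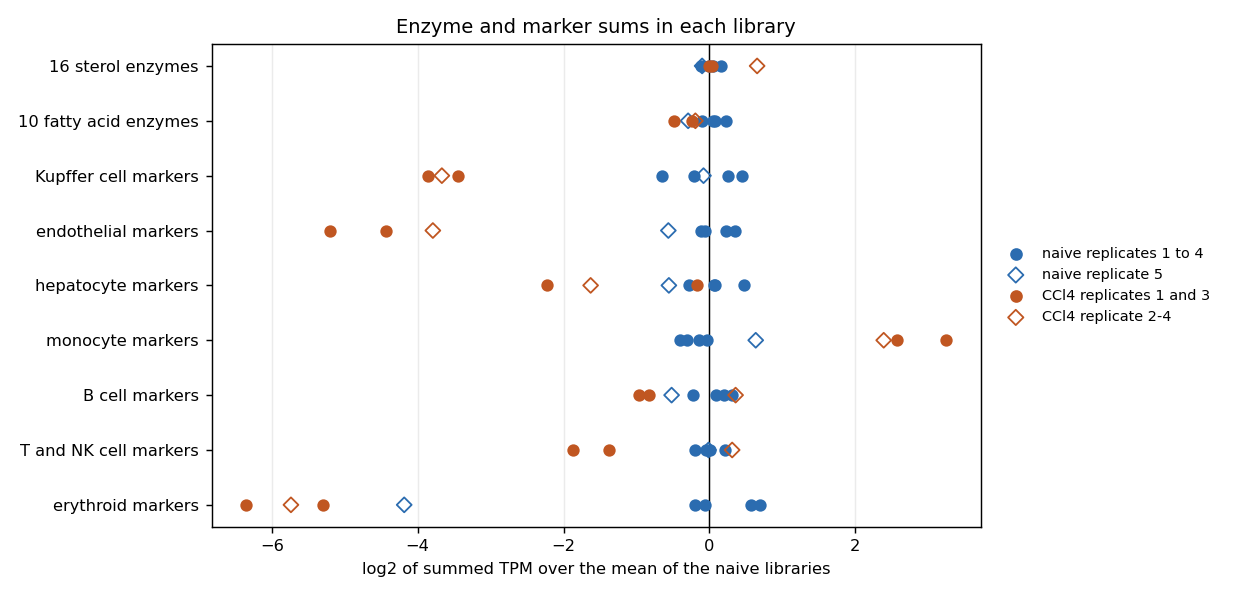
Summed TPM of the sterol enzymes, the fatty acid enzymes and marker lists of 7 cell types in each library, as log2 of the ratio to the naive mean. Open diamonds mark naive 5 and CCl4 2-4. The enzyme sums lie within 1 log2 unit of the naive mean in every library, while the Kupffer cell, endothelial and monocyte sums lie far from it in the CCl4 libraries.

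Around the 32 genes, 82 further genes of the same pathways were listed, of which 74 could be tested. Of these 13 rose (17.6%) and 17 fell (23%), close to the shares over all genes, and the median log2 fold change was -0.10. Among the further sterol synthesis genes, Tm7sf2, a sterol reductase, fell (log2 fold change -0.62, SE 0.195, adjusted p = 0.0287). Of 10 genes of SREBP processing and sterol-regulated protein degradation, Erlin1, part of a complex of the endoplasmic reticulum, rose (log2 fold change 0.58, SE 0.165, adjusted p = 0.0175), as did Trib1 (log2 fold change 0.56, SE 0.187, adjusted p = 0.0369), and Rnf145, a ligase that acts on SCAP, fell (log2 fold change -0.66, SE 0.142, adjusted p = 0.00401). With accession and version matched, Rnf145 was at -0.27 (adjusted p = 0.286). The Trib1 call was lost in 9 alternatives, among them leaving out naive 1 (0.49, adjusted p = 0.08), naive 2 (0.54, adjusted p = 0.0687), naive 4 (0.57, adjusted p = 0.0616), CCl4 2-4 (0.44, adjusted p = 0.14) or CCl4 3 (0.46, adjusted p = 0.144). The Erlin1 call was lost without CCl4 1 (0.52, adjusted p = 0.0642), without CCl4 2-4 (0.50, adjusted p = 0.0685) and with the replicate block (adjusted p = 0.136). The Tm7sf2 call was lost in 7 alternatives, among them leaving out naive 1 (-0.56), naive 2 (-0.53), CCl4 1 (-0.63) or CCl4 3 (-0.51), where the adjusted p was 0.0695, 0.0623, 0.0612 and 0.112.

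Of 11 genes of sterol uptake, trafficking and esterification, 5 rose and 1 fell. The rises were Npc1 (log2 fold change 0.95, SE 0.182, adjusted p = 0.00197) and Npc2 (log2 fold change 1.03, SE 0.179, adjusted p = 0.00103), which move cholesterol out of lysosomes, and Nceh1, a cholesteryl ester hydrolase, Stard3, a sterol carrier, and Lrp1, an uptake receptor. The fall was Mylip, an LXR-induced ubiquitin ligase, at 151.6, 181.6, 171.5, 140.5 and 127.5 TPM in naive and 50.1, 53.7 and 41.3 TPM in CCl4 libraries. All CCl4 values of Mylip were far under the naive range (log2 fold change -1.65, SE 0.154, adjusted p = 1.56e-05). Of 6 genes of oxysterol synthesis and LXR, Cyp27a1, which makes an oxysterol, rose (log2 fold change 1.50, SE 0.180, adjusted p = 8.78e-05). Nr1h3, which encodes LXR alpha (log2 fold change -1.08, SE 0.189, adjusted p = 0.0011), its partner Rxra (log2 fold change -1.33, SE 0.205, adjusted p = 0.000479) and Cyp7b1 fell. Cyp7b1 was under 1 TPM in all 3 CCl4 libraries, so it passed the filter only through naive libraries.

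Among further genes of fatty acid synthesis and its regulation the calls were falls. Of these 12 genes 0 rose and 5 fell: Acacb, Acss2, Mlxipl, Thrsp and Prkab1, which are not all enzymes of synthesis. Acacb encodes the mitochondrial acetyl-CoA carboxylase (log2 fold change -1.69, SE 0.193, adjusted p = 6.12e-05, and -0.95 with accession and version matched). Mlxipl encodes the carbohydrate-responsive factor ChREBP (log2 fold change -1.34, SE 0.233, adjusted p = 0.00104). Thrsp, a lipogenic regulator, was at 22.8, 21.5, 27.9, 18.7 and 4.62 TPM in naive and 1.29, 1.17 and 0.86 TPM in CCl4 libraries. Naive 5 was the lowest naive library and still above all CCl4 libraries (log2 fold change -3.07, SE 0.448, adjusted p = 0.000331). Of 13 genes of elongation and desaturation 1 rose, Hacd4, and 4 fell. The falls were Elovl3 (log2 fold change -2.79, SE 0.362, adjusted p = 0.000148), Fads3, and Cyb5a (log2 fold change -1.55, SE 0.286, adjusted p = 0.00157) and Cyb5r3 (log2 fold change -1.43, SE 0.176, adjusted p = 0.000104), which pass electrons to the desaturases. Elovl3 and Acacb were under 1 TPM in all 3 CCl4 libraries, so both passed the filter only through naive libraries. Of 10 genes of acyl activation and glycerolipid synthesis, Acsl1, which activates fatty acids, rose (log2 fold change 0.74, SE 0.144, adjusted p = 0.00214) and Agpat2 fell (log2 fold change -1.45, SE 0.186, adjusted p = 0.000139). Neither was called with accession and version matched, where Agpat2 was at -0.17 (adjusted p = 0.624) and Acsl1 at 0.57 (adjusted p = 0.117), and the Acsl1 call was also lost with the replicate block (adjusted p = 0.0925). Of 5 NADPH-supplying genes, Pgd (log2 fold change 0.86, SE 0.205, adjusted p = 0.00717) and G6pdx (log2 fold change 0.56, SE 0.198, adjusted p = 0.0472) of the pentose phosphate pathway rose and Me2 fell (log2 fold change -0.50, SE 0.149, adjusted p = 0.0213), beside the fall of Me1. The G6pdx call was lost in 9 alternatives, among them pseudocount 0.1 (adjusted p = 0.0509) and leaving out CCl4 1 (0.36, adjusted p = 0.194), CCl4 3 (0.64, adjusted p = 0.0691), naive 1 (0.56, adjusted p = 0.0803), naive 3 (0.46, adjusted p = 0.0913) or naive 4 (0.53, adjusted p = 0.0928). The Me2 call was lost without CCl4 3 (-0.46, adjusted p = 0.079) and with the replicate block (adjusted p = 0.19).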

How the data were processed

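RNA of Kupffer cells was sequenced in 5 naive and 3 CCl4 libraries. The authors deposited TPM per RefSeq transcript, made with kallisto 0.42.4 on GRCm38 per the submitters' processing notes. TPM keep no depth, so the depth behind a value is unknown and the spread between libraries set the precision. Of 107384 transcripts, 86722 matched a RefSeq gene of GRCm38.p6 by accession without version. The unmatched held 6.06% to 7.58% of a library's TPM, so some gene sums are incomplete. Genes reaching 1 TPM in 3 or more libraries were fitted by limma 3.58.1 (R 4.3.3) after adding a pseudocount of 1 TPM and taking log2 (intensity trend, group as the only term), adjusted by Benjamini-Hochberg over all 15629 genes, with a threshold of 0.05. The fit was tested on simulated data. The members, lists and tests were chosen with earlier results of these data known. The text names all members, at most 3 called genes of each further list by adjusted p, and others chosen after their values were seen. Some genes these rules took are not reported here. Alternatives varied pseudocount, filter, scaling, variance settings, weights, matching, a replicate block and the libraries.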

Additional observations from a re-analysis of the deposited data

How the results depend on the processing

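Under 21 alternatives no called gene changed sign, and 6 of the 12 called genes (Cyp51, Insig2, Stard4, Me1, Scd1 and Fads2) kept their call in every alternative in which they were tested. Of these, Me1 passed the filter only through naive libraries and was not tested with the filter at 5 TPM. The count of genes called higher, 5 in the fit reported, was 3 without a filter on low values, 3 after rescaling to protein-coding genes, 3 with accession and version matched, 8 after median-of-ratios rescaling and 11 after quantile normalization. Leaving out 1 library, or naive 5 and CCl4 2-4 together, gave 3 to 5 higher, with 3 for each of naive 1, naive 2, naive 4 and CCl4 2-4. The count called lower, 7, ranged from 5 to 9 with libraries left out and was 5 with accession and version matched, where 28 of the 32 genes could be tested. Stard4 and Fads2 had no transcript with a matching version, so they were not tested there. The median log2 fold change, 0.02, was 0.23 after quantile normalization, -0.07 with library weights and from -0.15 to 0.15 with libraries left out. Of the 20 genes not called, 11 changed sign in some alternative. For the shared numbers 1 and 3 the correlation of deviations from the group means was 0.077 and -0.041. All pairs of a naive and a CCl4 library ranged from -0.122 to 0.159. With so few libraries these values cannot show whether the numbers pair the samples. Only these numbers occur in both groups, so the fit with the replicate block compared naive 1 and 3 with CCl4 1 and 3. The other libraries, CCl4 2-4 among them, did not enter its group difference. With a term for each replicate number, that fit had almost no residual degrees of freedom. Its p-values rest mainly on the variance borrowed across genes, so calls gained or lost there say little about robustness. In that fit 2 genes were higher, Cyp51 and Dhcr7, 6 were lower and the median was -0.14. Mvd (adjusted p = 0.134), Srebf2 (0.203), Pmvk (0.509), Sqle (0.143) and Acly (0.126) were not called there. The cause of the differences between the other alternatives was not tested. TPM give no depth, and the interval of most uncalled genes spans changes of the size called in others.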
